A study of Mus musculus with 147 samples.

Results

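*Kit*, *Kitl*, *Cxcr4*, *Cxcl12* and *Ror2* encode receptors and ligands that guide mouse germ cells on their way to the gonad. They are the 5 rows with these symbols among the 31053 genes of the UMI count table. The list was drawn up by name, with earlier results of these data known. UMI stands for unique molecular identifier, a tag that lets each captured transcript be counted once. The mice were offspring of C57BL/6 females and BVSC males, which carry the transgenes *Blimp1*-mVenus and *Stella*-ECFP, both driven by genes active in germ cells, so that all wild-type pools carried the reporters. Single cells were sequenced at 26 time-points from embryonic day (E) 8.5 to the adult testis in 54 pools, each made up of all cells of a biological replicate (R1, R2 or R3) at its time-point. From E8.5 to E10.5 whole embryos were digested and BVSC+ cells were sorted, with males chosen by a PCR for *Sry* at E10.5 and E11.5 per the study's methods. In the table of cells those of E8.5, E9.5 and E10.5 R1 and R2 carry no mark of sex, and those of E10.5 R3 and of every later pool are marked male, so comparisons with E8.5 to E10.5 set mostly unmarked cells against male cells. From E11.5 to E18.5 gonads were taken, and cells with the reporter signal (BVSC) and cells without it (Negative) were sorted apart. From E14.5 on the BVSC gate used ECFP alone. Changes in BVSC cells from E11.5 to E13.5 to E14.5 to E16.5 therefore cannot be told apart from this change of gate. From E13.5 to E16.5 the male gonad was cut into a proximal (P), a central (C) and a distal (D) part, named from their place relative to the mesonephros. After birth (postnatal day, PND, 0 to the adult) no reporter gate was used, and cells were split here into germ-like and somatic-like classes by clustering without the 5 genes and their pathway genes. For PND14 and PND30 some cells had been sorted by DNA content.

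Primordial germ cells arise outside the gonad and travel through the hindgut and its mesentery to the genital ridges. KIT, a receptor tyrosine kinase of the germ cell surface, receives KIT ligand (KITL, or stem cell factor) from the somatic cells around it, and the pair supports survival, proliferation and movement. After birth the same receptor marks spermatogonia that have entered differentiation, while Sertoli cells supply the ligand. CXCR4 is a chemokine receptor and CXCL12 its ligand, a secreted chemoattractant, and ACKR3 is a second CXCL12 receptor that takes the ligand up. ROR2 is a receptor tyrosine kinase-like protein that binds WNT5A and acts in cell polarity and directed movement. Levels are given as CPM, a gene's UMIs in a pool's summed cells scaled to a total of 1000000 UMIs, and n is the number of pools. They compare one gene between cells, and genes are not ranked against each other by them.

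On GRCm38 (mm10) with the GENCODE M21 annotation, *Kit* (ENSMUSG00000005672.12) lies at chr5:75574916-75656722 on the plus strand and *Kitl* (ENSMUSG00000019966.18) at chr10:100015630-100100416 on the plus strand. *Cxcr4* (ENSMUSG00000045382.6) lies at chr1:128588199-128592293 on the minus strand and *Cxcl12* (ENSMUSG00000061353.11) at chr6:117168535-117181367 on the plus strand. *Ror2* (ENSMUSG00000021464.14) lies at chr13:53109312-53286124 on the minus strand. The libraries read 3′ ends, so alternative transcripts of a gene that share its 3′ end, among them the membrane-bound and soluble forms of *Kitl* and the short spermatid transcript of *Kit*, were counted together.

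The promoters of the chemokine pair are shown as an example of a receptor and ligand found on opposite sides of the sort, as *Kit* and *Kitl* also were. They are the 250 bases before the annotated RefSeq start on GRCm38.p6, 5′ to 3′ on the gene's own strand, and capitals mark TATAAA and GGGCGG on either strand (the latter reads CCGCCC on the other strand). The *Cxcr4* promoter is chr1:128592300-128592549 on the minus strand and that of *Cxcl12* chr6:117168285-117168534 on the plus strand.
Cxcr4: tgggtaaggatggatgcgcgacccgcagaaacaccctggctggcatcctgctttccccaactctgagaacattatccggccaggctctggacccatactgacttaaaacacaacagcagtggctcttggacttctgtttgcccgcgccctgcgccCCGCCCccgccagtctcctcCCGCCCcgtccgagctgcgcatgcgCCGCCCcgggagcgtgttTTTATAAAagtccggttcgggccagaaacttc
Cxcl12: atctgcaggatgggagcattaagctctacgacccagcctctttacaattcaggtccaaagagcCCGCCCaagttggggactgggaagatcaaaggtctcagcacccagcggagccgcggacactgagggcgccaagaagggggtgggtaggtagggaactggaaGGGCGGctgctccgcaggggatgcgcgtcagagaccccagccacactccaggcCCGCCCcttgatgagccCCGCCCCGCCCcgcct
TATAAA occurred 2 times before *Cxcr4*, in overlapping matches on opposite strands, and 0 times before *Cxcl12*. In the other pair it occurred 0 times before *Kit* and 1 time before *Kitl*. GGGCGG occurred 3 times before *Cxcr4* and 5 times before *Cxcl12*. Of 27025 promoters of the same length, 12.97% held TATAAA and 32.9% held GGGCGG. All 5 genes had a RefSeq promoter, with 14 (*Cxcl12*) to 24 (*Ror2*) CpG dinucleotides against a median of 6 over all promoters.

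Of 10224 wild-type cells from E8.5 on, 9972 passed the study's filter and 9438 entered sums of at least 10 cells. The sums held 20701229 to 35260188 UMIs in 24 BVSC pools, 2457656 to 14846785 in 16 Negative pools, 11061401 to 197238410 in 28 germ-like pools and 777950 to 14377002 in 17 somatic-like pools. All libraries used drew on the same 96 cell barcodes. Summed CPM of 14 germ cell markers was 1966 to 5074 in the BVSC pools from E11.5 on and 84.6 to 634 in the Negative pools. Several pools stood apart. At E8.5 most BVSC cells of R1 and R3 lay in a cluster led by *Ttr*, *Apom* and *Apoa1*, genes of the yolk sac and visceral endoderm, and the germ cell markers summed to 46.1 and 552 CPM there against 1336 CPM in R2. At E17.5 the R1 cells and at E16.5 the R2 Negative cells lay mostly in an unnamed cluster led by *S100a8*, a neutrophil gene, and E17.5 R1 BVSC cells held 1325 CPM of 10 Sertoli markers against 462 to 571 CPM in the other 3 late fetal BVSC pools. Unnamed clusters held 320 cells of adult R1 and 162 cells of PND8 R1, which were left out of the germ-like sums, so that PND8 and adult germ-like cells each come from R2 alone. The part of these differences in the results below was not tested, and values without E8.5, E17.5 or the pool concerned, some of them settings chosen after the data were seen, are given with the results.

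Across the 9 comparisons that follow, each gene was tested with edgeR's quasi-likelihood test over all genes, and called at a Benjamini-Hochberg adjusted p under 0.05. Between BVSC and Negative cells of E11.5 to E18.5 (16 pools each), 4 of the 5 genes were called, where 60.3% of 21368 genes tested were. Of these 4, *Kit* and *Cxcr4* were higher in BVSC cells (36.5% of all genes) and *Kitl* and *Cxcl12* lower (23.8%). In BVSC cells 1 of 5 was called between E8.5 to E10.5 and E11.5 to E13.5 (14.9% of all genes, 7.41% rising and 7.54% falling), where *Ror2* fell. Between E11.5 to E13.5 and E14.5 to E16.5, 1 of 5 was called (40.6%, 23.8% rising and 16.7% falling), where *Kit* fell. Between E14.5 to E16.5 and E17.5 to E18.5, 1 of 5 was called (30.2%, 14.3% rising and 15.8% falling), where *Cxcl12* rose. In germ-like cells 2 of 5 were called between PND0 to PND2 and PND5 to PND7 (45.6%), *Kit* as rising (19.2%) and *Ror2* as falling (26.4%). Between PND5 to PND7 and PND30 to adult 4 of 5 were called (71.7%, 38.1% rising and 33.6% falling), and all 4 fell. In Negative cells 1 of 5 was called between E11.5 to E13.5 and E14.5 to E18.5 (3.07%, 1.87% rising and 1.21% falling), where *Cxcl12* rose. Between distal and proximal gonad none of 5 was called in BVSC cells (0% of 17340 genes) and none of 4 tested in Negative cells (0% of 13059 genes). Steps that follow each other share a group of pools, and each is given with its own values.

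**Figure D1:**
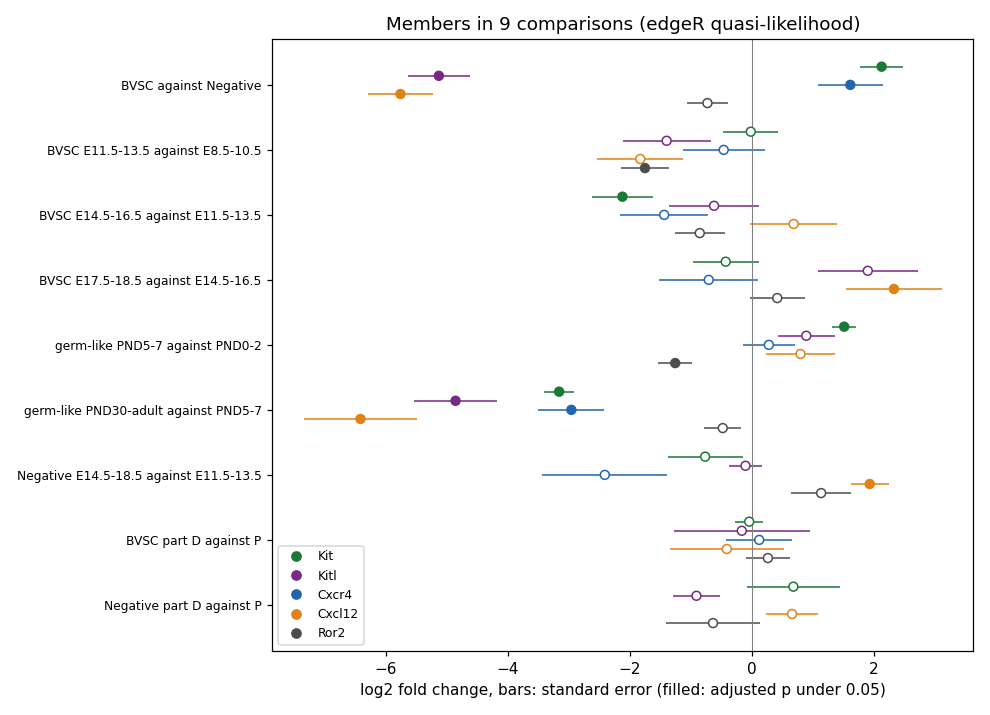
Log2 fold changes of the 5 genes with their standard errors in the comparisons tested, 1 point a gene and comparison, with filled points for an adjusted p under 0.05 and open points for the others. The ligands *Kitl* and *Cxcl12* lie 5.13 and 5.76 below 0 between BVSC and Negative cells, *Kit* and *Cxcr4* above 0, and *Kit* alone is called as rising from PND0 to PND2 to PND5 to PND7.

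*Kit* was high in migrating and newly arrived germ cells, fell from E12.5 to E15.5 and rose again in the first 10 days after birth. In BVSC cells the sums held 3.44, 184 and 75.9 CPM of *Kit* at E8.5 (R1 to R3), 183 and 156 CPM at E9.5, and 94.3, 161 and 90.4 CPM at E10.5. They held 148 and 169.6 CPM at E11.5, 124.5 and 141.7 CPM at E12.5, and 54.9 and 83.6 CPM at E13.5. Apart from E8.5 R1, the pool with 46.1 CPM of germ cell markers, every pool up to E12.5 lay at 75.9 CPM or more. The pool at 75.9 CPM, E8.5 R3, also lay mostly in the cluster led by *Ttr*. At E8.5 only R2 formed a sum of germ-like cells, at 196 CPM. At E14.5 the sums were at 37.1 and 35.2 CPM, at E15.5 at 25.9 and 10.96 CPM, at E16.5 at 55.3 and 41.7 CPM, at E17.5 at 26.2 and 42.4 CPM and at E18.5 at 32.8 and 23.7 CPM. By mean, E15.5 was the lowest day and E16.5 stood above its neighbours, although E17.5 R2 lay above E16.5 R2. E16.5 R1 lay just above E13.5 R1. Apart from this pair and E8.5 R1, each pool before E14.5 lay above each later fetal one.

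The mean level of *Kit* was 118.5 ± 63.3 CPM (SD, n = 8) at E8.5 to E10.5, 120.4 ± 43.1 CPM (n = 6) at E11.5 to E13.5, 34.4 ± 14.98 CPM (n = 6) at E14.5 to E16.5 and 31.3 ± 8.33 CPM (n = 4) at E17.5 to E18.5. Between the first 2 groups the log2 fold change was -0.01 ± 0.45 (SE), with a 95% interval of -0.96 to 0.93, and without E8.5 it was -0.29 ± 0.20 (adjusted p = 0.41). From E11.5 to E13.5 to E14.5 to E16.5, where the gate also changed, *Kit* fell by 2.12 ± 0.50 on the log2 scale (edgeR adjusted p = 0.0022), while the median of all genes moved by 0.65. Without replicate 2 the fall was 1.68 and the adjusted p 0.21, and among BVSC cells that also lay in germ-like clusters the call held. Between the last 2 groups it differed by -0.43 ± 0.54 (adjusted p = 0.57). Of the 10 pairs of neighbouring days in order of level, 8 overlapped between their replicates.

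Negative cells of the same gonads held less *Kit*. Their sums ranged from 0.779 CPM (E17.5 R1) over a median of 10.6 CPM to 27.2 CPM (E12.5 R2) in 16 pools, against 10.96, 42.01 and 169.6 CPM in the 16 BVSC pools of the same days. *Kit* was higher in BVSC cells in 15 of the 16 pools, the exception being E15.5 R2, where both gates were low (10.96 and 13.004 CPM). The log2 fold change was 2.13 ± 0.35 (adjusted p = 6.6e-06), against a median of 0.38 over all genes, and without E17.5 it was 2.20 ± 0.34. Mast cells also make *Kit*, and their marker *Cpa3* stood at 189.7 CPM in E16.5 R2 Negative cells and 78.8 CPM in E17.5 R2 Negative cells, whose *Kit* levels were 5.89 and 15.6 CPM.

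**Figure D2:**
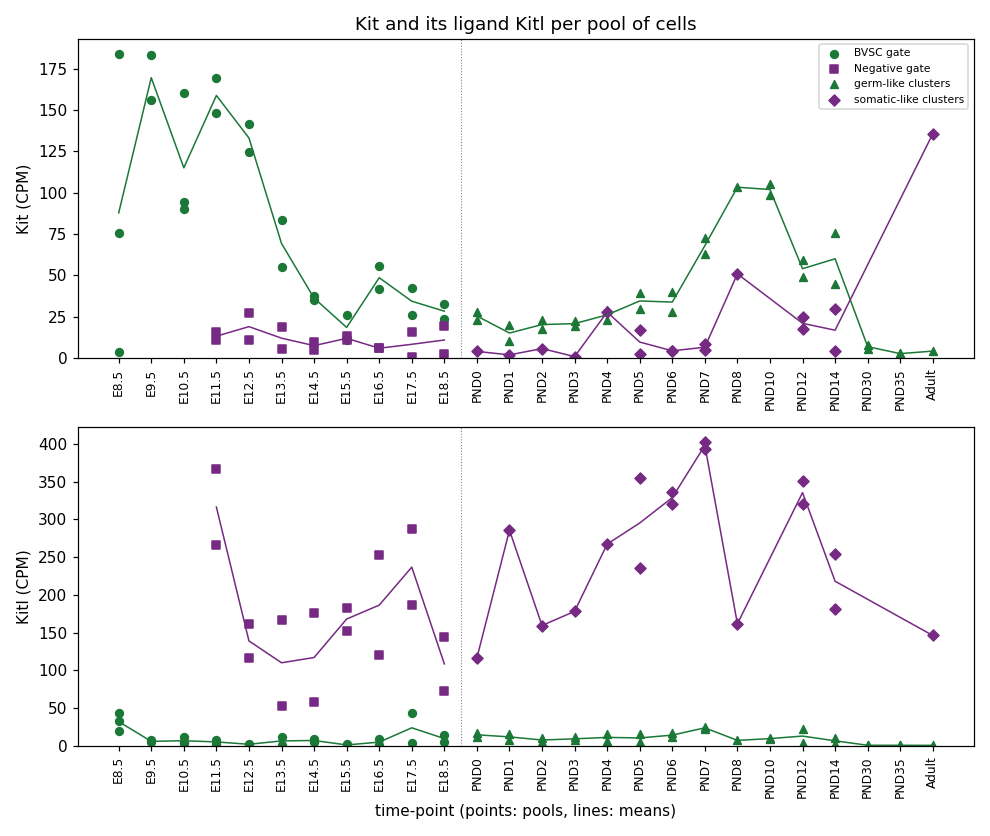
*Kit* (receptor) and *Kitl* (ligand) in CPM against the time-point, 1 point a pool, with lines through the means. Green circles are BVSC, purple squares Negative, green triangles germ-like and purple diamonds somatic-like cells. *Kit* in the green pools falls from 148 and 169.6 CPM at E11.5 to 25.9 and 10.96 CPM at E15.5 and is at 105.2 and 98.6 CPM at PND10, and *Kitl* is higher in the purple pools at every day from E11.5 to E18.5.

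The same fall was seen in single cells. After thinning each cell to 50000 UMIs, 97.8% of BVSC cells held a *Kit* UMI at E9.5 (Wilson 95% interval 94.6 to 99.2%, 181 of 185 cells). At E12.5 it was 97.01% (92.6 to 98.8%) of BVSC cells and 39.02% (25.7 to 54.3%) of Negative cells. At E15.5 it was 38.7% (31.9 to 45.9%) and 10.47% (5.60 to 18.7%). The fall from E12.5 to E15.5 thus showed as fewer cells with a UMI at equal depth. Before thinning the E12.5 shares were 97.1 and 66.7%, at median depths of 3.41e+05 and 1.31e+05 UMIs a cell, and those at E15.5 64.7 and 25%, at 2.96e+05 and 2.04e+05 UMIs. These intervals and the limits below cover counting error only.

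After birth *Kit* in germ-like cells was at 27.5 and 23.2 CPM at PND0, 10.03 and 19.99 CPM at PND1 and 17.2 and 23.1 CPM at PND2. It was at 19.1 and 22.3 CPM at PND3, 22.99 and 29.1 CPM at PND4, 39.03 and 29.8 CPM at PND5, 27.9 and 39.6 CPM at PND6, and 63.1 and 72.7 CPM at PND7. The levels of PND7 lay above those of all earlier postnatal days. At PND8 *Kit* was at 103.3 CPM (R2 alone), at PND10 at 105.2 and 98.6 CPM, at PND12 at 48.7 and 59.2 CPM and at PND14 at 75.4 and 44.5 CPM. In these data PND8 and PND10 were the postnatal days with the highest levels. At PND30 *Kit* was at 7.89 and 5.60 CPM, at PND35 at 2.94 and 2.17 CPM and in the adult at 4.06 CPM (R2 alone). Each germ-like pool from PND30 on thus lay below every earlier one. Left out of these sums were 320 unnamed adult R1 cells, at 33.9 CPM of *Kit*. Their cluster held 4054 CPM of germ cell markers and 1120 CPM of somatic ones.

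*Kit* averaged 20.2 ± 6.05 CPM (n = 6) at PND0 to PND2 and 45.4 ± 18.3 CPM (n = 6) at PND5 to PND7, and the highest early pool (27.5 CPM) lay just under the lowest later one (27.9 CPM). The log2 fold change was 1.52 ± 0.19 (adjusted p = 1.8e-05), where the median of all genes fell by 0.49. From PND5 to PND7 to PND30 to adult (4.53 ± 2.28 CPM, n = 5) it fell by 3.16 ± 0.24 (adjusted p = 4.3e-09). With the 320 unnamed adult cells counted as germ-like, the fall was 2.49. At equal depth 48.5% of germ-like cells held a *Kit* UMI at PND2 (7.69% of somatic-like cells), 87.2% at PND10 (83.2 to 90.4%) and 15.7% at PND30. Before thinning these shares were 77.7, 94.3 and 33.6%, at median depths of 2.74e+05, 2.98e+05 and 3.06e+05 UMIs (somatic-like cells of PND2 15.9%, at 1.45e+05 UMIs). By DNA content, *Kit* at PND30 was at 8.13 and 10.2 CPM in 1N cells, 9.86 and 5.29 CPM in 2N cells and 6.06 and 3.87 CPM in 4N cells (R1 and R2), so that both 1N sums lay above both 4N sums and the 2N sums overlapped both.

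*Kitl* was a gene of the somatic cells. In BVSC cells its sums held 32.8, 18.97 and 43.9 CPM at E8.5, 7.07 and 4.22 CPM at E9.5, and 3.23, 4.43 and 11.9 CPM at E10.5. From E11.5 to E18.5 the 16 BVSC pools ranged from 0.0414 CPM (E15.5 R2) over a median of 4.17 CPM to 43.3 CPM (E17.5 R1). The 16 Negative pools of those days ranged from 52.9 CPM (E13.5 R1) over a median of 164 CPM to 367 CPM (E11.5 R1). The gates did not overlap, and in each of the 16 pools the Negative cells were higher, by at least 6.17-fold. The mean was 7.29 ± 10.4 CPM in BVSC cells and 173 ± 86.2 CPM in Negative cells, a log2 fold change of -5.13 ± 0.51 (adjusted p = 1.0e-09) that was -5.35 ± 0.52 without E17.5. The highest BVSC pool from E11.5 on, E17.5 R1, was the one with 1325 CPM of Sertoli markers.

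Over fetal days the somatic level of *Kitl* passed no test for a change. Negative cells held 367 and 265 CPM at E11.5, 161 and 116.6 CPM at E12.5, 52.9 and 167 CPM at E13.5, and 176 and 57.5 CPM at E14.5. They held 153 and 183 CPM at E15.5, 253 and 119.6 CPM at E16.5, 287 and 186 CPM at E17.5, and 72.3 and 144.4 CPM at E18.5. E11.5 was the highest day, and all 7 pairs of neighbouring days in order of level overlapped. From E11.5 to E13.5 to E14.5 to E18.5 the log2 fold change was -0.10 ± 0.27 (adjusted p = 0.96, 95% interval -0.66 to 0.46). In BVSC cells *Kitl* passed no test between stages, the nearest being a log2 difference of 1.90 ± 0.82 from E14.5 to E16.5 to E17.5 to E18.5 (adjusted p = 0.081), which was 1.36 ± 0.92 without E17.5 (adjusted p = 0.29).

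After birth the 17 somatic-like pools held 116.2 to 403 CPM of *Kitl* and the 28 germ-like pools 0.237 to 24.5 CPM, again without overlap. In germ-like cells *Kitl* averaged 15.9 ± 7.32 CPM at PND5 to PND7 and 0.448 ± 0.192 CPM at PND30 to adult, so that it fell by 4.85 ± 0.68 on the log2 scale (adjusted p = 6.1e-06). Markers of Sertoli cells in the same germ-like sums went from 277 to 644 CPM at PND5 to PND7 to 17.1 to 44.9 CPM at PND30 to adult, and those of interstitial cells from 66.2 to 302 CPM to 13.4 to 23.6 CPM. The part of this in the falls of *Kitl* and *Cxcl12* was not tested. The 320 unnamed adult R1 cells, left out of these sums, held 5.33 CPM of *Kitl*. From PND0 to PND2 to PND5 to PND7 *Kitl* differed by 0.89 ± 0.47 (adjusted p = 0.13).

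*Cxcr4* was low in all classes, and before birth higher in BVSC than in Negative cells. BVSC sums held 0, 14.7 and 4.12 CPM at E8.5, 16.47 and 9.71 CPM at E9.5, 8.07, 12.1 and 14.2 CPM at E10.5, and 7.92 and 17.4 CPM at E11.5. The count of 0 at E8.5 R1 allows up to 0.131 CPM. They held 5.60 and 10.3 CPM at E12.5, 2.22 and 4.17 CPM at E13.5, 6.36 and 8.91 CPM at E14.5, and 3.90 and 1.78 CPM at E15.5. They held 1.12 and 1.62 CPM at E16.5, 1.18 and 2.49 CPM at E17.5, and 4.08 and 2.69 CPM at E18.5. The 7 pools at 9.71 CPM or more lay at E8.5 to E12.5, and those of E16.5 and E17.5 at 2.49 CPM or less, but all 10 pairs of neighbouring days in order of level overlapped. No step between stages passed the test, with log2 differences of -0.46 ± 0.67 (E8.5 to E10.5 to E11.5 to E13.5, adjusted p = 0.86), -1.43 ± 0.72 (to E14.5 to E16.5, adjusted p = 0.12) and -0.70 ± 0.81 (to E17.5 to E18.5, adjusted p = 0.53). Without E8.5 the first of these was -0.82 ± 0.39 (adjusted p = 0.19). Among BVSC cells that also lay in germ-like clusters, the middle step was -1.45 with an adjusted p of 0.0034.

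Negative cells held 11.4 and 4.79 CPM of *Cxcr4* at E11.5 and 0 to 3.84 CPM later, with counts of 0 in E14.5 R2 (up to 0.377 CPM) and E16.5 R2 (up to 0.411 CPM). Their 16 pools had a median of 0.797 CPM and a mean of 1.88 ± 2.89 CPM, and the BVSC pools ranged from 1.12 CPM over a median of 3.99 CPM to 17.4 CPM, with a mean of 5.11 ± 4.34 CPM. The gates overlapped across days, and within pools BVSC cells were higher in 14 of 16. The log2 fold change was 1.62 ± 0.53 (adjusted p = 0.0104), and without E17.5 it was 1.64 ± 0.59 (adjusted p = 0.019). The call rests on both replicates, since the adjusted p was 0.093 without replicate 1 and 0.12 without replicate 2. At equal depth 35.1% of BVSC cells (27.9 to 43.1%) and 9 of 50 Negative cells (9.77 to 30.8%) held a *Cxcr4* UMI at E11.5, and 7.22% and 1.11% at E16.5, against 66.2, 32.1, 16.2 and 2.08% before thinning, at 3.43e+05, 1.80e+05, 2.46e+05 and 1.49e+05 UMIs a cell.

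In germ-like cells *Cxcr4* was at 1.61 and 2.05 CPM at PND0, 4.08 and 2.30 CPM at PND1, 6.51 and 5.53 CPM at PND2, 4.51 and 7.61 CPM at PND3, and 5.35 and 5.85 CPM at PND4. It was at 3.20 and 4.94 CPM at PND5, 4.78 and 2.33 CPM at PND6 and 1.84 and 2.26 CPM at PND7. PND2 to PND4 were the highest days, and no pool from PND8 on reached the PND0 to PND7 range. From PND8 to PND14 the pools lay between 0.236 and 1.26 CPM and from PND30 on between 0.155 and 0.578 CPM. Between PND0 to PND2 and PND5 to PND7, on either side of the highest days, the log2 difference was 0.28 ± 0.43 (adjusted p = 0.69). To PND30 to adult *Cxcr4* fell by 2.96 ± 0.54 (adjusted p = 1.0e-04). Somatic-like pools held 0 to 5.55 CPM and were not tested against germ-like ones. Their mean was above that of germ-like cells at PND7 (2.11 and 2.05 CPM), PND8 (1.07 and 0.724 CPM), PND12 (3.20 and 0.493 CPM) and in the adult (0.904 and 0.383 CPM).

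**Figure D3:**
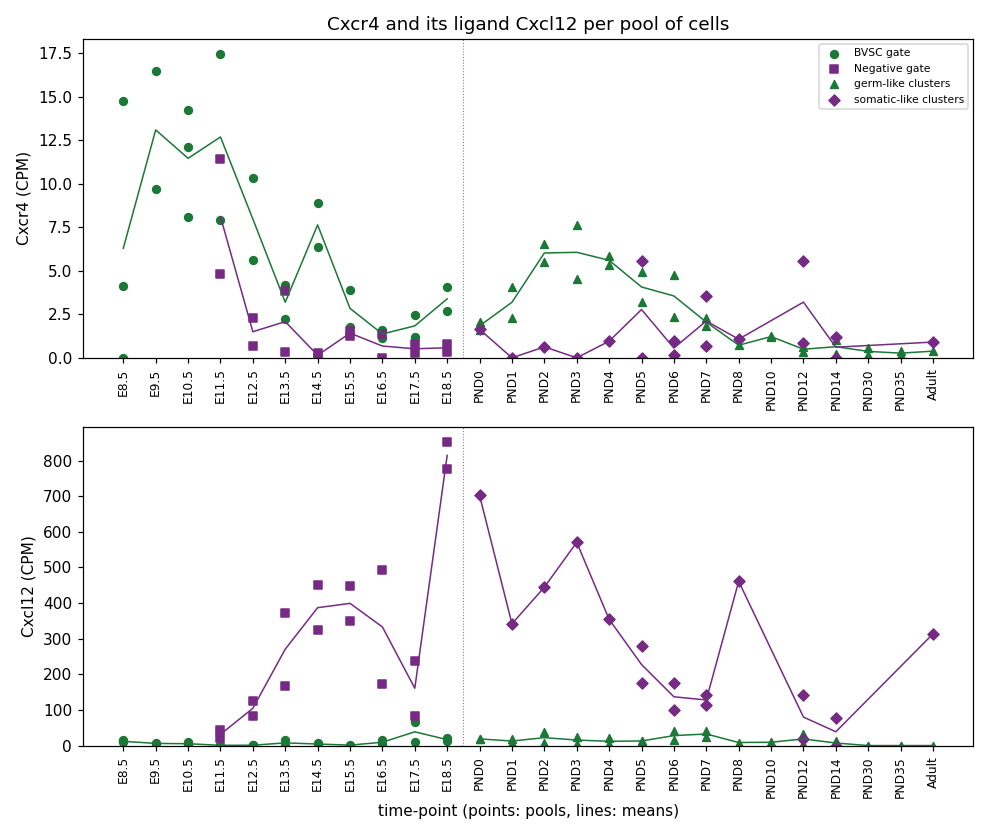
*Cxcr4* (receptor) and *Cxcl12* (ligand) in CPM against the time-point, 1 point a pool and lines through the means. Green circles are BVSC, purple squares Negative, green triangles germ-like and purple diamonds somatic-like cells. *Cxcl12* in Negative pools is at 20.5 and 42.9 CPM at E11.5, 83.6 and 239 CPM at E17.5 and 777 and 852 CPM at E18.5. *Cxcr4* in germ-like pools is at 1.26 CPM or less from PND8 on.

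*Cxcl12*, the ligand, rose in the somatic cells of the fetal gonad. Negative cells held 20.5 and 42.9 CPM at E11.5, 125.6 and 83.9 CPM at E12.5, 373 and 168 CPM at E13.5, and 323 and 451 CPM at E14.5. They held 449 and 349.6 CPM at E15.5, 173 and 493.4 CPM at E16.5, 83.6 and 239 CPM at E17.5, and 777 and 852 CPM at E18.5. Both replicates of E11.5 lay below, and both of E18.5 above, every other Negative pool. The mean went from 135.7 ± 128.2 CPM at E11.5 to E13.5 (n = 6) to 419 ± 246 CPM at E14.5 to E18.5 (n = 10), and the groups overlapped. The log2 fold change was 1.93 ± 0.31 (adjusted p = 0.0019), where 3.07% of genes were called, and it was 1.70 ± 0.25 without E16.5 R2 and 2.06 ± 0.25 without E17.5 R1. Interstitial markers in the same sums ranged from 397 to 2845 CPM at E11.5 to E13.5 and from 625.5 to 6366 CPM at E14.5 to E18.5, and their part in the rise was not tested. At equal depth 14 of 50 Negative cells (17.47 to 41.7%) held a *Cxcl12* UMI at E11.5 and 86.5% (72.0 to 94.1%) at E18.5, while BVSC cells went from 3.38% (1.45 to 7.66%) to 40.3% (32.5 to 48.6%). Before thinning these 4 shares were 33.96, 97.8, 16.6 and 87.4%, at 1.80e+05, 1.07e+05, 3.43e+05 and 3.70e+05 UMIs a cell.

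In BVSC cells *Cxcl12* was low. It was at 12.2, 8.85 and 15.4 CPM at E8.5, 7.62 and 4.78 CPM at E9.5, 10.3, 1.29 and 4.38 CPM at E10.5, 0.444 and 1.29 CPM at E11.5, and 1.11 and 1.25 CPM at E12.5. It was at 14.7 and 0.762 CPM at E13.5, 6.90 and 2.15 CPM at E14.5, 2.52 and 0.166 CPM at E15.5, and 15.9 and 3.24 CPM at E16.5. It was at 66.4 and 11.1 CPM at E17.5 and 11.8 and 21.8 CPM at E18.5. Replicates of one day lay as far apart as 14.7 and 0.762 CPM, and the highest pool was again E17.5 R1. From E14.5 to E16.5 to E17.5 to E18.5 *Cxcl12* differed by 2.33 ± 0.78 on the log2 scale (adjusted p = 0.031). Without E17.5 it was 1.87 (adjusted p = 0.15), without replicate 1 3.56 (adjusted p = 0.14), without replicate 2 1.72 (adjusted p = 0.31), and in BVSC cells of germ-like clusters 1.58 (adjusted p = 0.12), so the call did not hold in any of these 4 settings. Interstitial markers in the BVSC sums went from 6.95 to 166 CPM at E14.5 to E16.5 to 218 to 547 CPM at E17.5 to E18.5. Those of Sertoli cells went from 155 to 525 CPM to 462 to 1325 CPM. Their part in the rise was not tested.

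Between the gates the ligand separated the cells as *Kitl* did. The 16 BVSC pools of E11.5 to E18.5 ranged from 0.166 CPM over a median of 2.88 CPM to 66.4 CPM, and the 16 Negative pools from 20.5 CPM over a median of 281 CPM to 852 CPM. The ranges overlapped through E17.5 R1 (66.4 CPM in BVSC cells) and the Negative cells of E11.5, while within every pool Negative cells were higher. The smallest gap was 1.26-fold, in E17.5 R1. The log2 fold change was -5.76 ± 0.53 (adjusted p = 2.9e-10) that was -6.15 ± 0.47 without E17.5. After birth germ-like cells held 2.71 to 40.4 CPM from PND0 to PND14 and 0.0612 to 0.365 CPM from PND30 on. From PND5 to PND7 to PND30 to adult *Cxcl12* fell by 6.41 ± 0.92 (adjusted p = 7.5e-06), together with the somatic markers given above. The unnamed adult R1 cells, which were not in this fit, held 17.49 CPM, above every germ-like pool from PND30 on.

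Sertoli-like and interstitial-like cells of the postnatal testis split the 2 ligands between them. Sertoli cells surround the germ cells inside the tubule, and interstitial and peritubular cells lie outside it. In 13 Sertoli-like sums (348 cells) *Kitl* ranged from 167 CPM over a median of 400 CPM to 490 CPM, and in 11 interstitial-like sums (260 cells) from 31.2 CPM over 75.9 CPM to 120.7 CPM. *Cxcl12* ranged from 0 over 8.14 CPM to 62.6 CPM in Sertoli-like sums and from 352 CPM over 661 CPM to 909 CPM in interstitial-like sums. For neither ligand did the ranges of these classes overlap. The sum at 0 was PND14 R2, with 10 cells, and allows up to 3.86 CPM. In the 8 pools with at least 10 cells of both classes, *Kitl* was higher in Sertoli-like cells in 8 of 8, by 2.40- to 6.87-fold, and *Cxcl12* in interstitial-like cells in 8 of 8, by 27.5- to 201-fold. These are descriptions without a test, because the classes come from clustering of the same cells, although the 5 genes were left out of it.

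Of the other 3 genes, *Ror2* and *Kit* lay higher in interstitial-like cells in most pools. In the 8 pools, *Ror2* was higher in interstitial-like cells in 8 (medians 11.8 against 1.96 CPM), *Kit* in 7 (15.7 against 3.43 CPM), and *Cxcr4* in 4 and lower in 3, with both at 0 in the other. In adult R1, 40 Leydig-like cells, the steroid-making cells of the interstitium, held 165.9 CPM of *Kit*, 139.9 CPM of *Kitl*, 0.0903 CPM of *Cxcr4*, 389 CPM of *Cxcl12* and 1.81 CPM of *Ror2*. That level of *Kit* was above every Sertoli-like (0.763 to 34.5 CPM) and interstitial-like sum (0.536 to 67.1 CPM), and it comes from 1 pool. In Negative cells before birth, 14 interstitial-like sums (471 cells) held 53.1 to 426 CPM of *Kitl* and 23.9 to 1098 CPM of *Cxcl12*, and the 1 Sertoli-like sum (13 cells) 242 and 31.9 CPM. Most fetal supporting cells fell into the same cluster as the other Negative cells at this resolution.

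At a finer clustering (resolution 0.8, for Negative cells a setting chosen after the data were seen) more fetal sums of both classes could be formed. There were 8 Sertoli-like sums (161 cells), or 6 (94 cells) without clusters led by *S100a8*, and 14 interstitial-like sums (372 cells). *Kitl* ranged from 242 CPM over a median of 347 CPM to 398 CPM in the 6 Sertoli-like sums, and from 29.5 CPM over 81.6 CPM to 426 CPM in interstitial-like sums. *Cxcl12* ranged from 19.95 CPM over 27.4 CPM to 68.3 CPM in the 6 Sertoli-like sums, and from 23.9 CPM over 503.9 CPM to 1231 CPM in interstitial-like sums. With the *S100a8* clusters the Sertoli-like ranges were 119.6 to 398 CPM of *Kitl* and 6.06 to 493.4 CPM of *Cxcl12*. Some sums went against their class name and set the ends of these ranges. The E11.5 interstitial-like sums (R1 426 CPM of *Kitl*) held 1927 and 1918.5 CPM of Sertoli markers against 460 and 785 CPM of interstitial ones. The E16.5 R2 Sertoli-like sum (493.4 CPM of *Cxcl12*) held 1547 CPM of Sertoli markers against 4585 CPM of interstitial ones. These sums are not among the pools with both classes. In the 6 pools with both classes *Kitl* was higher in Sertoli-like cells in 6 of 6, by 3.11- to 6.15-fold, and *Cxcl12* in interstitial-like cells in 6 of 6, by 8.18- to 32.7-fold. These too are descriptions without a test.

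**Figure D4:**
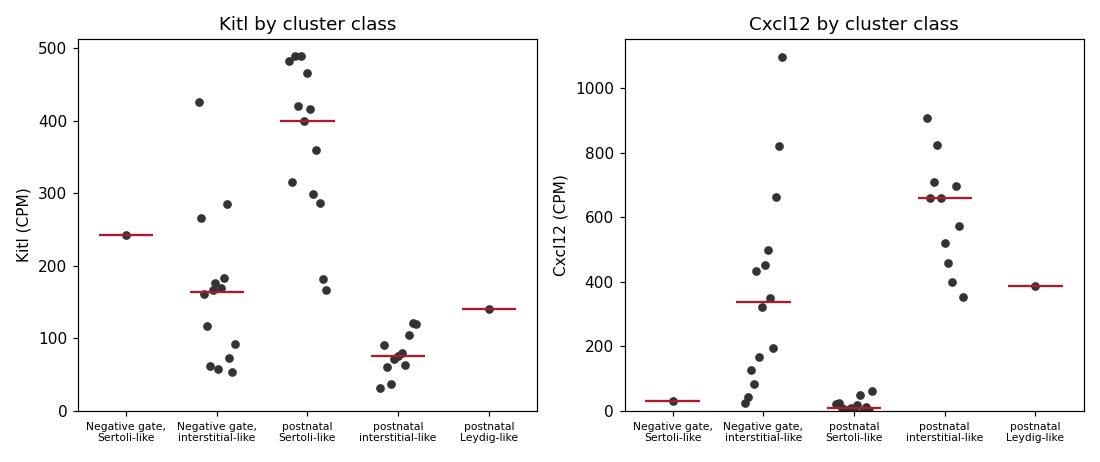
*Kitl* and *Cxcl12* in CPM in somatic sums of at least 10 cells, 1 dot a pool and a red line at the median. The classes are those of Negative cells before birth, and Sertoli-like, interstitial-like and Leydig-like cells after birth. Postnatal Sertoli-like sums lie at a median of 400 CPM of *Kitl* and 8.14 CPM of *Cxcl12*, interstitial-like sums at 75.9 and 661 CPM.

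*Cxcl12* in all somatic-like cells together was at 702 CPM at PND0, 342 CPM at PND1, 445 CPM at PND2, 571 CPM at PND3 and 354 CPM at PND4, each from 1 pool. It was at 175 and 281 CPM at PND5, 175 and 99.4 CPM at PND6, 141.96 and 114.3 CPM at PND7, 461 CPM at PND8, 142.2 and 18.02 CPM at PND12, and 77.9 and 0 CPM at PND14. The shares of Sertoli-like and interstitial-like cells differed between these pools, and their part in the levels was not tested. In the adult it was at 314 CPM and *Kitl* at 146.1 CPM, in 51 cells of which 40 were Leydig-like.

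*Ror2* was high while germ cells migrated and fell on their arrival. BVSC sums held 3.88, 60.6 and 25.2 CPM at E8.5, 58.8 and 43.01 CPM at E9.5, 34.8, 43.6 and 37.6 CPM at E10.5, 21.1 and 23.5 CPM at E11.5, and 7.63 and 10.1 CPM at E12.5. Apart from E8.5 R1, each pool of E8.5 to E10.5 lay above each later one. The lowest of these, E8.5 R3 at 25.2 CPM, lay mostly in the cluster led by *Ttr*. *Ror2* was at 9.59 and 4.57 CPM at E13.5, 6.87 and 5.95 CPM at E14.5, 8.34 and 8.19 CPM at E15.5, 7.45 and 7.97 CPM at E16.5, 13.2 and 19.6 CPM at E17.5, and 12.6 and 8.53 CPM at E18.5. The level was even from E12.5 to E16.5, between 4.57 and 10.1 CPM. At equal depth 148 of 185 BVSC cells (73.7 to 85.1%) held a *Ror2* UMI at E9.5 and 13.6% (9.28 to 19.4%) at E13.5, against 92.6 and 33.2% before thinning, at 3.35e+05 and 2.68e+05 UMIs. Negative cells of E13.5 stood at 12.3% (6.85 to 21.3%), 18.9% before thinning at 1.64e+05 UMIs.

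*Ror2* averaged 38.5 ± 18.3 CPM (n = 8) at E8.5 to E10.5 and 12.7 ± 7.69 CPM (n = 6) at E11.5 to E13.5, and fell by 1.75 ± 0.40 on the log2 scale (adjusted p = 0.0055), the 1 member called there. Without the E8.5 pools, a setting chosen after the data were seen, it fell by 1.99 ± 0.23 (adjusted p = 7.1e-06). Without replicate 1 the adjusted p was 0.12 and without replicate 2 it was 0.38. The next steps were -0.85 ± 0.41 to E14.5 to E16.5 (adjusted p = 0.11) and 0.42 ± 0.45 to E17.5 to E18.5 (adjusted p = 0.49). With DESeq2's size factors the first of these was -1.12 with an adjusted p of 0.025.

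Unlike *Kit* and *Cxcr4*, *Ror2* did not lie higher in the sorted germ cells of the gonad. Negative sums held 6.99 and 7.06 CPM at E11.5, 20.8 and 4.92 CPM at E12.5, 4.46 and 10.04 CPM at E13.5, and 8.15 and 38.5 CPM at E14.5. They held 13.96 and 27.6 CPM at E15.5, 12.6 and 29.6 CPM at E16.5, 13.2 and 11.7 CPM at E17.5, and 15.4 and 21.2 CPM at E18.5. BVSC cells were higher in 5 of the 16 pools, both pools of E11.5 among them, and Negative cells in 11. The log2 fold change was -0.73 ± 0.34 with a 95% interval of -1.41 to -0.04, and it did not pass the threshold over all genes (adjusted p = 0.063), nor without E17.5 (-0.84 ± 0.37, adjusted p = 0.056). With DESeq2's size factors it was -0.86 with an adjusted p of 0.038.

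**Figure D5:**
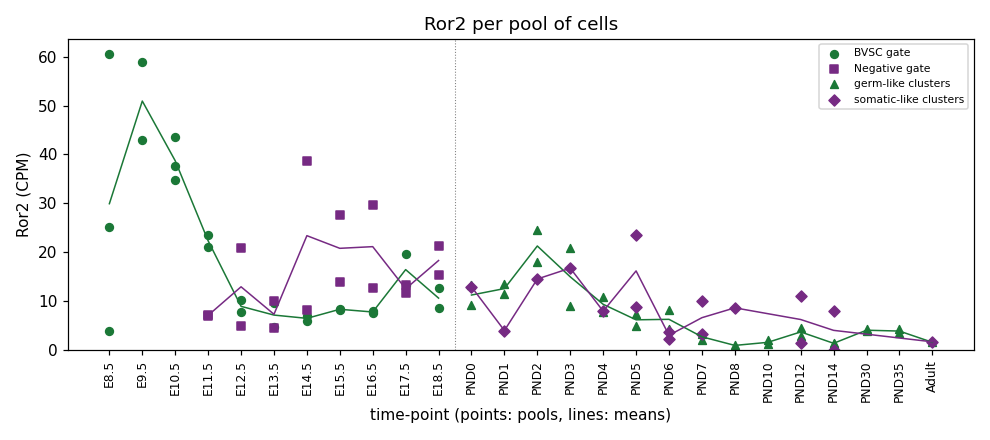
*Ror2* in CPM against the time-point, 1 point a pool and lines through the means. Green circles are BVSC, purple squares Negative, green triangles germ-like and purple diamonds somatic-like cells. BVSC pools drop from 58.8 and 43.01 CPM at E9.5 to 9.59 and 4.57 CPM at E13.5, and germ-like pools from 24.6 and 17.9 CPM at PND2 to 3.23 and 2.03 CPM at PND7.

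A second fall of *Ror2* followed birth. Germ-like sums held 13.2 and 9.12 CPM at PND0, 13.54 and 11.48 CPM at PND1, 24.6 and 17.9 CPM at PND2, 8.97 and 20.9 CPM at PND3, and 7.72 and 10.9 CPM at PND4. They held 4.90 and 7.31 CPM at PND5, 8.19 and 4.23 CPM at PND6, 3.23 and 2.03 CPM at PND7, 0.865 CPM at PND8, and 1.89 and 1.10 CPM at PND10. The lowest pool was that of PND8, at which *Kit* was near its highest. *Ror2* was at 4.38 and 2.87 CPM at PND12, 1.22 and 1.37 CPM at PND14, 3.79 and 4.17 CPM at PND30, 3.45 and 4.16 CPM at PND35, and 1.502 CPM in the adult. The mean went from 14.97 ± 5.52 CPM at PND0 to PND2 to 4.98 ± 2.37 CPM at PND5 to PND7 without overlap (9.12 CPM the lowest early pool, 8.19 CPM the highest later one). *Ror2* fell by 1.25 ± 0.28 (adjusted p = 0.0019), while *Kit* rose in the same pools. From there to PND30 to adult it differed by -0.47 ± 0.30 (adjusted p = 0.17), and it was the 1 member not called there. At equal depth 50.5% of germ-like cells (43.6 to 57.4%) held a *Ror2* UMI at PND2 and 5.56% (3.05 to 9.92%) at PND8, against 70.1 and 10.6% before thinning, at 2.74e+05 and 3.23e+05 UMIs. Somatic-like cells stood at 30.8% at PND2, 36.4% before thinning at 1.45e+05 UMIs.

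*Wnt5a*, a ligand of ROR2, lay on the somatic side of the sort. Its mean was 18.4 ± 19.8 CPM in the 16 BVSC pools (0.852 to 62.3 CPM) and 248 ± 127.8 CPM in the 16 Negative pools (46.97 to 576 CPM) of E11.5 to E18.5, a log2 fold change of -4.62 ± 0.45 (adjusted p = 6.7e-10). In BVSC cells it went from 44.97 ± 27.8 CPM at E8.5 to E10.5 to 4.01 ± 2.16 CPM at E11.5 to E13.5 and fell by 3.48 ± 0.53 (adjusted p = 1.5e-04), in the same step as *Ror2*, and without E8.5 also by 3.48 ± 0.42. In this step the medians of somatic markers in the BVSC sums also fell, from 52.4 to 15.99 CPM (interstitial) and from 345 to 123.9 CPM (Sertoli). Their part in the fall of *Wnt5a* was not tested. At E17.5 to E18.5 *Wnt5a* was back at 45.6 ± 17.2 CPM, a rise by 1.76 ± 0.54 over E14.5 to E16.5 (adjusted p = 0.020) that was 1.91 ± 0.63 without E17.5 (adjusted p = 0.042). Interstitial markers in the same BVSC sums went from 6.95 to 166 CPM to 218 to 547 CPM in this step. Their part in the rise was not tested. In germ-like cells *Wnt5a* fell with *Ror2* from PND0 to PND2 (23.8 ± 7.12 CPM) to PND5 to PND7 (6.95 ± 1.93 CPM), by 1.35 ± 0.51 (adjusted p = 0.038).

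Of the other WNT5A receptors and partners, *Ror1*, the paralogue of *Ror2*, was lower in BVSC than in Negative cells by a log2 difference of -3.11 ± 0.58 (adjusted p = 4.0e-05), the frizzled receptor gene *Fzd2* by -2.03 ± 0.29 (adjusted p = 5.9e-07) and the co-receptor gene *Ptk7* by -1.58 ± 0.24 (adjusted p = 2.4e-06). The receptor genes *Ryk* (0.04 ± 0.24, adjusted p = 0.91) and *Fzd7* (-0.99 ± 0.64, adjusted p = 0.18) were not called there. In BVSC cells *Fzd7* fell by 2.62 ± 0.54 from E11.5 to E13.5 to E14.5 to E16.5 (adjusted p = 7.8e-04) while *Fzd2* rose by 2.23 ± 0.36 (adjusted p = 6.7e-05). *Ptk7* fell by 1.25 ± 0.40 from E8.5 to E10.5 to E11.5 to E13.5 (adjusted p = 0.039), a call not held without E8.5 (-0.99 ± 0.38, adjusted p = 0.097). *Ackr3*, the second CXCL12 receptor, stood at 1.33 ± 1.17 CPM in BVSC and 12.9 ± 10.48 CPM in Negative cells, a log2 fold change of -3.69 ± 0.68 (adjusted p = 3.3e-05), opposite in direction to *Cxcr4*. In BVSC cells *Ackr3* fell by 2.56 ± 0.67 to E11.5 to E13.5 (adjusted p = 0.014) and by 2.27 ± 0.72 to E14.5 to E16.5 (adjusted p = 0.016), then rose by 2.41 ± 0.76 to E17.5 to E18.5 (adjusted p = 0.023). Without E8.5 the first of these falls was 2.66 ± 0.69, and without E17.5 the rise was 2.94 ± 0.88, both still called. The part of the interstitial markers, which rose in the same BVSC sums, in the rise of *Ackr3* was not tested. At the first fall of *Ackr3* the median of these markers fell too, from 52.4 to 15.99 CPM, and their part in it was not tested either.

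Lists of pathway genes without the members were described by counts. Of all genes, 36.5% were higher and 23.8% lower in BVSC than in Negative cells. Between BVSC and Negative cells, 5 of 26 genes of KIT signalling were higher in BVSC cells, 11 lower and 10 not called, with a median log2 difference of -0.23 where that of all genes was 0.38. Of 26 CXCL12 signalling genes 4 were higher, 9 lower and 13 not called (median -0.23), and of 34 WNT5A and ROR genes 3 were higher, 18 lower and 13 not called (median -0.96). Of 28 adhesion and matrix genes of germ cell migration 4 were higher, 19 lower and 5 not called (median -1.61). The largest differences were those of the phosphatase gene *Ptpn6* (3.23 ± 0.37) and the PI3-kinase subunit gene *Pik3r1* (-3.26 ± 0.48) for KIT, the arrestin gene *Arrb2* (2.17 ± 0.26) and *Ackr3* for CXCL12, and *Celsr2* (2.08 ± 0.63), a cadherin of planar polarity, and *Wnt5a* for WNT5A. Among adhesion genes they were those of *Cdh1* (3.93 ± 0.46), the epithelial cadherin that germ cells carry, and the gap junction gene *Gja1* (-5.10 ± 0.45). Without E17.5 the counts higher and lower were 4 and 11, 4 and 9, 3 and 19, and 4 and 19 in the order given.

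Along fetal development of BVSC cells the lists had members moving both ways. From E8.5 to E10.5 to E11.5 to E13.5, 4 genes of KIT signalling rose and 3 fell, 1 and 6 of CXCL12 signalling, 1 and 5 of WNT5A signalling, and 1 and 9 of adhesion and matrix, among the last the laminin gene *Lama5* (-3.89 ± 1.11). Without E8.5 they were 2 and 3, 0 and 5, 1 and 4, and 2 and 5, and *Lama5* was not called (-2.66 ± 1.08, adjusted p = 0.12). To E14.5 to E16.5 the counts of rises and falls were 7 and 8, 8 and 10, 7 and 7, and 4 and 8 in the same order, with *Grk3*, a kinase of chemokine receptors (7.68 ± 1.00), *Stat5a* (4.70 ± 0.73) and the cell adhesion gene *L1cam* (5.49 ± 1.09) as the largest rises of their lists. To E17.5 to E18.5 they were 2 and 3, 2 and 6, 4 and 4, and 2 and 8, with the interferon-induced surface protein gene *Ifitm1* (-5.22 ± 0.62) as the largest fall, and without E17.5 3 and 2, 2 and 4, 2 and 2, and 0 and 6. The largest list medians in these 3 steps were -0.76, -0.33 and 0.23, where the medians of all genes were 0, 0.65 and 0.35. Of all genes, 7.41, 23.8 and 14.3% rose in these steps and 7.54, 16.7 and 15.8% fell.

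After birth the lists counted 8 rises and 6 falls (KIT), 9 and 9 (CXCL12), 4 and 11 (WNT5A) and 6 and 6 (adhesion and matrix) from PND0 to PND2 to PND5 to PND7. To PND30 to adult they counted 6 and 15, 3 and 19, 4 and 21, and 2 and 24, with medians of -0.84, -2.14, -2.35 and -3.0 where that of all genes was 0.26. *Cdh1* (-6.75 ± 0.55), *Ptk7* (-6.31 ± 0.65) and *Ryk* (-4.33 ± 0.27) were among those that fell, and the cadherin gene *Cdh2* (3.71 ± 0.27) among those that rose. Of all genes, 19.2 and 38.1% rose in these steps after birth and 26.4 and 33.6% fell. In Negative cells from E11.5 to E13.5 to E14.5 to E18.5, no gene of KIT or CXCL12 signalling was called, and in the other 2 lists the receptor gene *Fzd4* fell (-1.92 ± 0.46, adjusted p = 0.029) and the tetraspanin gene *Cd9* rose (1.11 ± 0.24, adjusted p = 0.016).

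The position along the gonad was a second condition from E13.5 to E16.5, with 8 pools for each part. In BVSC cells *Kit* ranged from 8.88 CPM over a median of 38.8 CPM to 85.2 CPM in the distal part and from 14.02 CPM over 33.9 CPM to 82.8 CPM in the proximal part. The log2 difference (distal over proximal) was -0.04 ± 0.23 (adjusted p = 1.00), with a 95% interval of -0.51 to 0.43. For *Cxcr4* the interval was -1.0 to 1.25, for *Ror2* -0.49 to 1.02, for *Kitl* -2.49 to 2.17 and for *Cxcl12* -2.36 to 1.55, so that only for *Kit* was a 2-fold difference outside it in both directions. edgeR called 0 genes there, with 214 at an unadjusted p under 0.05, and DESeq2 called 0.

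In Negative cells the ligands lay opposite ways along the gonad in most pools, without passing the test. Each sum held 13 to 16 cells, and the part of their mix of Sertoli-like and interstitial-like cells was not tested. *Kitl* ranged from 14.4 CPM over a median of 116.1 CPM to 231 CPM in the distal and from 80.7 CPM over 202 CPM to 297 CPM in the proximal part, and was higher in the proximal part in 7 of 8 pools. *Cxcl12* ranged from 128.97 CPM over 451 CPM to 587 CPM in the distal and from 90.3 CPM over 198 CPM to 727 CPM in the proximal part, and was higher in the distal part in 7 of 8. The ranges overlapped, and neither passed the test, with log2 differences of -0.90 ± 0.39 (unadjusted p = 0.030, adjusted p = 0.91) and 0.66 ± 0.42 (adjusted p = 0.92). Without replicate 2, *Cxcl12* differed by 1.43 (adjusted p = 0.0048). edgeR called 0 genes, with 704 at an unadjusted p under 0.05, and DESeq2 called 8. *Wnt5a* had a log2 difference of 1.15 ± 0.27 there (unadjusted p = 3.9e-04, adjusted p = 0.91). *Kit* (95% interval -0.91 to 2.28) and *Ror2* (-2.25 to 0.99) were not called, and *Cxcr4* was too low to be tested.

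Over the 85 sums of BVSC, Negative, germ-like and somatic-like cells, the genes most like each member by Pearson's r of log2(CPM + 1), among 13447 genes, were these. They are descriptions, since the sums share pools and differ in cell class. For *Kit* they were *Crip2* (r = 0.84), *Pmm1* (0.77) and *Evpl* (0.77). For *Cxcr4* they were *Nanog* (0.79), *Sox2* (0.79) and *Tfap2c* (0.79), genes of the pluripotency and germ cell programmes. For *Kitl* they were *Sh2d4a* (0.95), *Tspan7* (0.94) and *Gata4* (0.94), the last a factor of gonadal somatic cells, and for *Cxcl12* the collagen gene *Col1a2* (0.96), *Pdgfra* (0.95), a marker of interstitial cells, and *Islr* (0.94). For *Ror2* the closest were *Ttc28* (0.75), *Rdm1* (0.74) and *Ptgfrn* (0.72). Among the members, r was 0.81 between the 2 ligands, 0.62 between *Kit* and *Cxcr4*, 0.46 between *Cxcr4* and *Ror2* and 0.11 between *Kit* and *Ror2*. Between receptor and ligand r was negative, at -0.43 for *Kit* and *Kitl* and -0.35 for *Cxcr4* and *Cxcl12*.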

How the data were processed

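Libraries were made by a modified STRT-seq, in which transcripts carry the barcode of their cell and a UMI and are read at the 3′ end. Per the submitters' notes the tools were CASAVA 1.8, UMI-tools, STAR and featureCounts on mm10, and the authors deposited UMI counts per gene and cell without normalization. Strand use in counting is not given in the sources used here. Time-point, replicate and gate of each cell came from the authors' table of cells. The 1672 columns of time-points before E8.5 were not used, and 1136 other listed cells were left out. Cells with more than 2000 genes and 10000 to 1000000 UMIs were kept. For classes, counts were scaled to 100000 and clustered in scanpy 1.11.5 on the 1000 most variable genes, reduced to 30 principal components, with 20 nearest neighbours at resolution 0.3, leaving out 119 genes, the members and their pathway lists. How clusters were named from the marker lists was settled after they were seen, and no doublet caller was run on the singly picked cells.

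UMI counts were summed per pool and class over at least 10 cells and tested with edgeR 4.0.16 (TMM, filterByExpr, quasi-likelihood, R 4.3.3), with DESeq2 1.42.0 as an alternative. Gates and gonad parts were compared with time-point as covariate, stages as contrasts of time-point means. The fits were tested on simulated data. Before birth classes follow the gate alone. The pairs of sums compared between gates or parts come from the same pool of embryos. Correlations of their deviations were -0.015 to 0.15 over 16 gate pairs and 0.17 to 0.34 over the pairs of parts. The 41 pairs of replicate sums all differed beyond sampling noise (chi-square per degree of freedom 13.4 to 480). Pools are biological replicates per the study. The 5 genes, the pathway lists and the marker lists were chosen with earlier results of these data known. Named besides the members were ligands and receptors of the same signals, the list gene with the largest called rise or fall of its list, and the 3 genes most like each member with a mean of at least 5 CPM (pseudocount 1).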

Additional observations from a re-analysis of the deposited data

Results flagged for a closer look

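In 45 groups of 4 to 10 pools, 3 had a pool far from the others, where chance gives about 5% of groups. *Cxcl12* was at 14.7 CPM in BVSC cells of E13.5 R1, with 0.444 to 1.29 CPM in the other 5 BVSC pools of E11.5 to E13.5. *Ror2* was at 20.8 CPM in Negative cells of E12.5 R1, with 4.46 to 10.04 CPM in the other 5 pools of E11.5 to E13.5. *Ror2* was at 1.502 CPM in adult R2 germ-like cells, with 3.45 to 4.17 CPM in the other 4 pools of PND30 to adult.

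The unnamed clusters entered no comparison and held counts of all 5 genes. In 320 cells of adult R1, in a cluster led by *Lcn2* and *Klk1b21*, *Kit* was at 33.9 CPM, *Kitl* at 5.33 CPM, *Cxcr4* at 0.500 CPM, *Cxcl12* at 17.49 CPM and *Ror2* at 0.755 CPM, each above the 0.0283 CPM that a count of 0 allows. In 162 cells of PND8 R1, mostly in a cluster led by the embryonic globin genes *Hbb-y* and *Hba-x*, *Kit* was at 80.7 CPM, *Kitl* at 7.96 CPM, *Cxcr4* at 0.895 CPM, *Cxcl12* at 20.7 CPM and *Ror2* at 2.44 CPM, with a limit of 0.0726 CPM. PND8 R2 germ-like cells held 103.3 CPM of *Kit* and 0.865 CPM of *Ror2*.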

How the results depend on the processing

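Of the recounts of members called, 6 were lower and 7 higher than the value reported by over 1.5 times, and the others stayed within it. From E8.5 to E10.5 to E11.5 to E13.5 in BVSC cells the count of 1 became 2 by DESeq2 (*Cxcl12* added) and 2 in germ-like clusters (*Kitl* added), and 0 to 1 with a replicate left out. To E14.5 to E16.5 it became 2 with DESeq2's size factors, 3 in germ-like clusters, and 0 to 1 with a replicate left out. To E17.5 to E18.5 it became 2 by DESeq2 and 2 without a filter on low counts (*Kitl* added), 0 without E17.5, and 0 with a replicate left out. In Negative cells of distal against proximal gonad it was 0 to 1 with a replicate left out. With pool as replicate block, no call on a member changed, 13173 genes in place of 12883 were called between the gates, and 1 and 3 genes between gonad parts in BVSC and Negative cells.

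Of 567 refits of single members, 531 kept direction and side of the threshold, 9 lost and 10 gained a call, and 17 changed sign, none of them called. As ranges of log2 changes over fits with a replicate or pool left out, in BVSC cells these were -0.10 to 0.27 (*Kit*, to E11.5 to E13.5), -2.61 to 0.73 (*Kitl*) and -0.27 to 1.48 (*Cxcl12*, both to E14.5 to E16.5) and -0.74 to 0.0079 (*Kit*, to E17.5 to E18.5). They were -0.59 to 0.0107 for *Ror2* at PND30 to adult (highest without adult R2) and -0.30 to 0.18 for *Kitl* in Negative cells (0.0105 without E14.5 R2). Between gonad parts they were -0.31 to 0.26 (*Kit*), -1.46 to 0.9997 (*Kitl*), -0.0094 to -0.0023 (*Cxcr4*, 0.12 as reported) and -0.11 to 0.60 (*Ror2*) in BVSC cells and -0.061 to 1.72 (*Kit*) in Negative cells. The others were *Kit* at E11.5 to E13.5 with DESeq2's size factors (0.0040), *Kitl* at E14.5 to E16.5 in germ-like clusters (0.088), *Ror2* at PND30 to adult by DESeq2 (0.15) and *Cxcr4* between gonad parts with the replicate block (-0.0043). The causes were not tested. Levels moved by more than 1 SD in 70 of 230 cases with TMM scaling, 71 of 230 as means over cells and 9 of 95 with gate and cluster together. The median change of all genes was 0.26 with DESeq2's size factors in place of 0.38 between gates, 0.39 in place of 0.65 at E14.5 to E16.5, 0.05 in place of 0.35 at E17.5 to E18.5 and -0.29 in place of -0.49 at PND5 to PND7.

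A minimum of 20 cells could not be run for gonad parts of Negative cells. Leaving out a whole replicate left no residual degrees of freedom for the postnatal and Negative stage fits, where single pools were left out instead, a choice made after the data were seen. *Cxcr4*, at 1.12 to 17.4 CPM in fetal germ cells of the gonad, was counted at 0 in 2 Negative sums, which allow up to 0.377 and 0.411 CPM.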
